A study of Mus musculus with 32 samples.

Results

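The 10 genes became the subject here because their products, most of them surface or secreted proteins, are used to recognise resting microglia: P2ry12, Tmem119, Cx3cr1, Selplg, Gpr34, Olfml3, Fcrls, Slc2a5, Crybb1 and Sparc. They were taken by name, and all 10 were found among the 74021 genes of the LAG-3-sorted table, the 74016 of the stage table and the 74021 of the spinal cord table. RNA-seq compared mice carrying the human mutant SOD1 transgene (SOD1G93A, heterozygous, a model of amyotrophic lateral sclerosis with loss of motor neurons) and, as WT, littermates without it. CD11b+/CD45int microglia of the lumbar cord were sorted from WT mice (4 libraries) and from SOD1G93A mice at P140, the late disease stage, the latter split by surface LAG-3 into LAG-3-low (5 libraries) and LAG-3-high (5 libraries) cells. From SOD1G93A/LAG-3+/+ mice, and from SOD1G93A/LAG-3-/- mice with the disrupted Lag3tm1Doi allele, microglia were sorted at P120 and at P140 (3 libraries per group), and whole lumbar cord of both genotypes was taken at P140 (3 libraries per group). All mice of the stage and cord experiments carried the SOD1 transgene, so those experiments hold no healthy control, and the sources used here do not give the age of the WT mice.

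Microglia of the healthy central nervous system hold a set of sensors and secreted proteins, some of which other macrophages make little of. P2ry12 is a Gi-coupled receptor for ADP that steers microglial processes toward injury, Cx3cr1 is the receptor for the neuronal chemokine Cx3cl1 (fractalkine), and Gpr34 is a G protein-coupled receptor for lysophosphatidylserine. Tmem119 is a transmembrane protein used as a microglial marker, Selplg (PSGL-1) is a ligand of selectins, Fcrls is an Fc receptor-like surface protein, and Slc2a5 (GLUT5) is a fructose transporter. Crybb1 is a beta-crystallin best known from the lens, Olfml3 is a secreted olfactomedin-like glycoprotein, and Sparc is a secreted matricellular protein that astrocytes and vascular cells also make. In neurodegeneration many of these transcripts are known to fall as microglia take on a disease-associated state. LAG-3 itself is an inhibitory receptor known mainly from T cells.

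On GRCm39 (GENCODE vM39) the genes lie on 5 autosomes and X. P2ry12 (ENSMUSG00000036353) occupies chromosome 3 from 59123682 to 59170429 on the minus strand, opposite exons of Med12l. Fcrls (ENSMUSG00000015852, named Fcrl2 in that annotation) occupies chromosome 3 from 87156616 to 87181827 on the minus strand, and Olfml3 (ENSMUSG00000027848) chromosome 3 from 103629538 to 103645322 on the minus strand. Tmem119 (ENSMUSG00000054675, chromosome 5 from 113931781 to 113938577) and Selplg (ENSMUSG00000048163, chromosome 5 from 113956597 to 113970705) are neighbours on the minus strand. Crybb1 (ENSMUSG00000029343) lies on the plus strand of chromosome 5 from 112400811 to 112417965, and Slc2a5 (ENSMUSG00000028976) on the plus strand of chromosome 4 from 150196268 to 150228931. Cx3cr1 (ENSMUSG00000052336, chromosome 9 from 119877749 to 119898945) and Sparc (ENSMUSG00000018593, chromosome 11 from 55285317 to 55314067) are on the minus strand, and Gpr34 (ENSMUSG00000040229) is on the plus strand of chromosome X from 13489625 to 13507116. The counting was not stated to use strand, so reads of P2ry12 and Med12l exons that overlap cannot be told apart, and reads shared between Fcrls and its Fc receptor-like paralogs could be split between them.

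Sequencing depth lay between 9403286 and 49512341 counts per library, lowest in WT, and all 10 genes passed the filter on low counts in all 3 tables. Lag3 was at 0.508 to 9.99 CPM in WT (counts scaled to library size with TMM factors), 34.8 to 57.8 CPM in LAG-3-low microglia and 146 to 195 CPM in the LAG-3-high cells. In SOD1G93A/LAG-3-/- microglia it was at most 0.461 CPM. In SOD1G93A/LAG-3+/+ microglia it was 53.4 to 62.9 CPM at P120 and 24.5 to 28.1 CPM at P140. In cord it was 5.50 to 5.72 CPM in SOD1G93A/LAG-3-/- against 43.4 to 74.5 CPM in SOD1G93A/LAG-3+/+ mice. All 8 pan-microglial markers (Aif1, Itgam, Itgb2, Ptprc, Laptm5, Spi1, Cd53 and Fcer1g) had counts in every library. Cd3e and Ncr1, among the 10 lymphocyte markers, were at 0 in all sorted libraries, where the 7 neuronal markers together stayed at or under 17.5 CPM. The 12 neutrophil markers together held 22803 to 65958 CPM in LAG-3-low, 6007 to 70511 CPM in WT and only 1.41 to 7.20 CPM in LAG-3-high microglia. They held 2.76 to 4577 CPM in the stage libraries. Border macrophage and monocyte markers (10 genes) held 47.1 to 808 CPM in WT, 262 to 662 CPM in LAG-3-low and 84.2 to 154 CPM in LAG-3-high microglia, and astrocyte, oligodendrocyte and lymphocyte markers stayed at or under 227, 211 and 34.4 CPM in the sorted libraries. Of 3 P140 SOD1G93A/LAG-3-/- libraries, number 1 had the highest level of all 10 genes, close to the SOD1G93A/LAG-3+/+ libraries, and of 3 P120 SOD1G93A/LAG-3-/- libraries number 2 had the lowest level of 8 of them.

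In WT microglia the order of the genes by level per length (CPM per kb of transcript, the only scale on which genes are compared) began with P2ry12 at 2477 ± 432 and Selplg at 2388 ± 1167 CPM per kb (SD, n = 4). Sparc, Tmem119, Gpr34 and Cx3cr1 followed between 1241 ± 255 and 878 ± 159.6 CPM per kb, each overlapping its neighbour in the order. Fcrls stood below them at 348 ± 83.8, apart from both neighbours, and Olfml3 at 188 ± 34.2, Slc2a5 at 108 ± 47.7 and Crybb1 at 62.3 ± 21.3 CPM per kb closed the order. In LAG-3-high microglia Fcrls led at 1163 ± 154 CPM per kb (SD, n = 5) with every library above every library of Sparc, the next gene at 882 ± 60.3. P2ry12 was in the sixth place there at 323 ± 36.01 CPM per kb, while Olfml3, Slc2a5 and Crybb1 kept the last places.

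**Figure D1:**
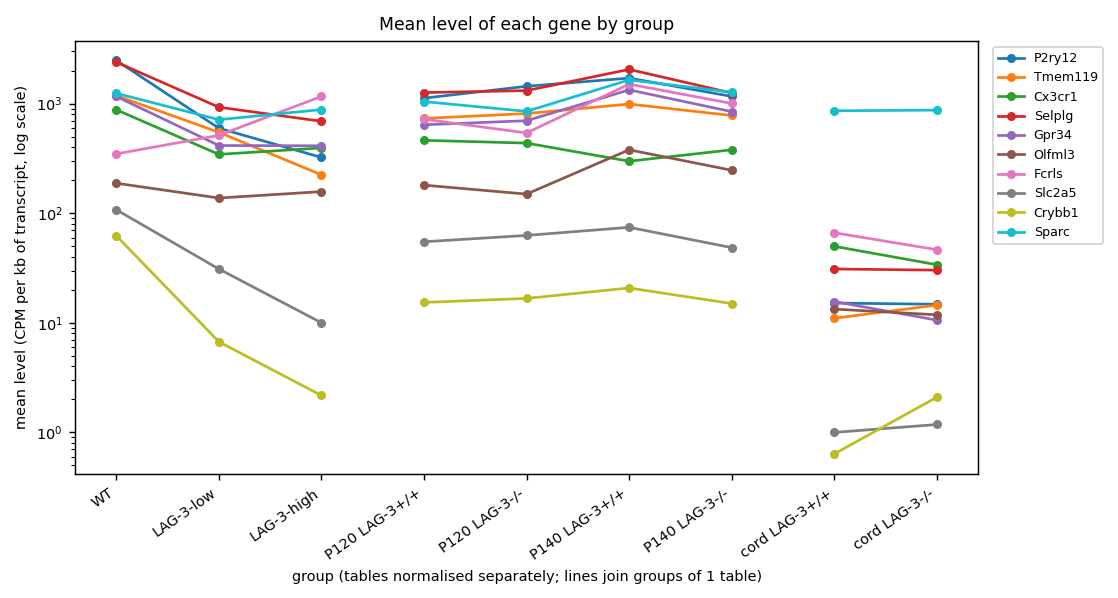
Mean level per kb of transcript (CPM per kb, log axis) of the 10 genes in the 9 groups, with lines joining groups of the same table, since the tables were normalised separately. Crybb1 drops from 62.3 in WT to 2.17 CPM per kb in LAG-3-high microglia, Fcrls climbs from 348 to 1163, and Sparc stands apart from the other genes in cord.

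The LAG-3 sorts ask how the homeostatic program differs between WT microglia and SOD1G93A microglia with little or much surface LAG-3. Of 10 genes, 7 were lower in the LAG-3-low cells than in WT (edgeR quasi-likelihood test, adjusted p under 0.1 and an absolute log2 fold change above 1), a share to be read against the 11.0% of all tested genes that were called lower. By contrast 0 were called higher, against 10.9% of all genes, although Fcrls had an adjusted p of 0.0494 with a log2 fold change under the minimum. LAG-3-high microglia also had 7 genes called lower than WT, with 14.9% of all genes called lower, and 1 called higher, Fcrls, with 12.1% of all genes called higher. Both comparisons share the WT libraries, and without WT replicate 2 the genes called higher among all tested rose from 1793 to 3235 in LAG-3-low and from 2000 to 3114 in LAG-3-high microglia. With only the groups compared in the fit, 909 genes were called higher and 812 lower of 15439 in LAG-3-low microglia. For LAG-3-high microglia that fit called 1121 higher and 1542 lower of 14374. The 10 genes had a median log2 fold change of -1.36 in LAG-3-low and -1.64 in LAG-3-high microglia, beside 0.04 and -0.08 for all tested genes.

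Among the receptors, P2ry12 was at 6096, 6358, 6821 and 4446 CPM in the 4 WT libraries. It was at 879, 959.5, 1346, 1938 and 2009.9 CPM in the 5 LAG-3-low libraries and at 721, 717, 877, 693 and 855 CPM in the 5 LAG-3-high libraries. The 3 groups did not overlap, and LAG-3-low libraries 4 and 5 had the highest values of their fraction. Relative to WT, the level fell 4.16-fold in LAG-3-low microglia, a log2 fold change of -2.06 (standard error 0.24, adjusted p = 1.74e-04), and 7.67-fold in LAG-3-high microglia, with -2.94 (standard error 0.25, adjusted p = 3.51e-06).

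Gpr34 was at 3571, 2067, 2406 and 3517 CPM in WT, 874, 765, 879, 1113 and 1528 CPM in LAG-3-low and 926, 1002, 961, 1037 and 1203 CPM in LAG-3-high libraries. Every SOD1G93A library lay below every WT library, and the LAG-3 fractions overlapped. Its log2 fold change against WT was -1.49 (standard error 0.22, adjusted p = 7.56e-04) in LAG-3-low and -1.49 (standard error 0.22, adjusted p = 3.93e-04) in LAG-3-high microglia. Cx3cr1 was at 2706, 3117, 3250.2 and 4131 CPM in WT, 1114, 929, 1335, 1498 and 1591 CPM in LAG-3-low and 1438, 1408, 1570.1, 1409 and 1574 CPM in LAG-3-high libraries. As for Gpr34, the WT libraries stood apart from both fractions, which overlapped. The fall was 2.55-fold in LAG-3-low microglia, a log2 fold change of -1.35 (standard error 0.17, adjusted p = 2.72e-04), and 2.23-fold in LAG-3-high microglia, with -1.16 (standard error 0.17, adjusted p = 4.09e-04).

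Tmem119 varied most widely relative to its mean in WT microglia, with 1261, 3582, 4421 and 1386 CPM, so that WT libraries 1 and 4 stood near the LAG-3-low libraries. Levels were 859.8, 818, 1519, 1542 and 1420.2 CPM in LAG-3-low and 574, 463, 524, 427 and 533 CPM in LAG-3-high libraries. LAG-3-low overlapped WT, whereas every LAG-3-high library lay below every library of the other groups. The log2 fold change was -1.11 (standard error 0.34, adjusted p = 0.039) in LAG-3-low microglia, a call that was lost under 6 alternatives (adjusted p up to 0.133), among them without WT replicate 2, without WT replicate 3 and without LAG-3-low replicate 2. In LAG-3-high microglia it was -2.40 (standard error 0.35, adjusted p = 3.74e-04), called under every alternative run. Selplg was at 3106, 5442, 7052 and 2272 CPM in WT, 1359, 1484, 1913, 1956 and 1962 CPM in LAG-3-low and 1309, 1253, 1494, 1086 and 1309 CPM in LAG-3-high libraries, with libraries 2 and 3 again the higher ones of WT. Neither fraction overlapped WT, and the log2 fold changes were -1.36 (standard error 0.27, adjusted p = 0.00448) and -1.79 (standard error 0.27, adjusted p = 4.61e-04).

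Crybb1 had the widest fall in both fractions, followed by Slc2a5 in LAG-3-high and by P2ry12 in LAG-3-low microglia. Slc2a5, the fructose transporter, was at 279, 449, 564 and 197 CPM in WT, 87.6, 102, 78.1, 101 and 167 CPM in LAG-3-low and 41.6, 38.5, 21.9, 20.7 and 50.6 CPM in LAG-3-high libraries. The 3 groups did not overlap, and the fall from WT was 3.47-fold in LAG-3-low and 10.7-fold in LAG-3-high microglia, log2 fold changes of -1.80 (standard error 0.35, adjusted p = 0.00449) and -3.43 (standard error 0.37, adjusted p = 3.45e-05). Crybb1, the crystallin, was at 79.9, 52.6, 125 and 91.05 CPM in WT, 5.61, 5.86, 13.03, 11.9 and 10.5 CPM in LAG-3-low and 3.72, 2.14, 1.97, 3.90 and 3.45 CPM in LAG-3-high libraries, the latter resting on 32 to 66 counts. Again no group overlapped another, and the level was 9.27-fold and 28.7-fold lower than in WT. Its log2 fold changes were -3.21 (standard error 0.40, adjusted p = 2.36e-04) in LAG-3-low and -4.84 (standard error 0.43, adjusted p = 4.84e-06) in LAG-3-high microglia.

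Fcrls moved the opposite way. It was at 779, 567, 1034 and 784 CPM in WT, 1061, 1306, 1122, 949 and 1402 CPM in LAG-3-low and 2720.2, 3097, 2748, 2138 and 2525 CPM in LAG-3-high libraries. Every LAG-3-high library exceeded every library of the other groups, and LAG-3-low overlapped WT through WT library 3. Against WT the log2 fold change was 0.56 (standard error 0.18, adjusted p = 0.0494) in LAG-3-low microglia, under the fold minimum, and 1.74 (standard error 0.19, adjusted p = 3.53e-05) in LAG-3-high microglia, a 3.35-fold rise. With transcript length and GC content corrected for, the LAG-3-low value turned to -0.25 (adjusted p = 0.449).

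The secreted genes Olfml3 and Sparc were not called in any sort comparison. Olfml3 was at 834, 1023, 1281 and 969.8 CPM in WT, 647, 675, 815, 769 and 856 CPM in LAG-3-low and 916, 863, 962, 676 and 888 CPM in LAG-3-high libraries, with overlap among all groups. Its log2 fold change against WT was -0.45 (standard error 0.16, adjusted p = 0.069) in LAG-3-low and -0.25 (standard error 0.16, adjusted p = 0.281) in LAG-3-high microglia. Sparc was at 3309, 2184, 2564 and 3403 CPM in WT, 1401, 1471, 1597, 1679.8 and 2084 CPM in LAG-3-low and 2062, 2086, 2161, 1796 and 2073 CPM in LAG-3-high libraries, where WT libraries 1 and 4 were the high ones. No SOD1G93A library reached the WT range, but the differences stayed under the fold minimum, with -0.80 (standard error 0.16, adjusted p = 0.0054) and -0.49 (standard error 0.16, adjusted p = 0.0436). Endothelial and mural markers (8 genes), whose cells also make Sparc, held 8.10 to 41.3 CPM in WT, 40.9 to 77.96 CPM in LAG-3-low and 82.3 to 126 CPM in LAG-3-high libraries, with Cdh5, Col4a1 and Col4a2 at 0 in all 14, and their part in the Sparc values was not tested. Both genes depended on the correction for length and GC content, under which they were called lower in both fractions, as were 4541 (LAG-3-low) and 4271 (LAG-3-high) of all 16508 genes: Olfml3 at -1.75 (adjusted p = 2.67e-04) and -1.54 (adjusted p = 5.29e-04), Sparc at -1.89 (adjusted p = 6.47e-04) and -1.51 (adjusted p = 0.00236).

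**Figure D2:**
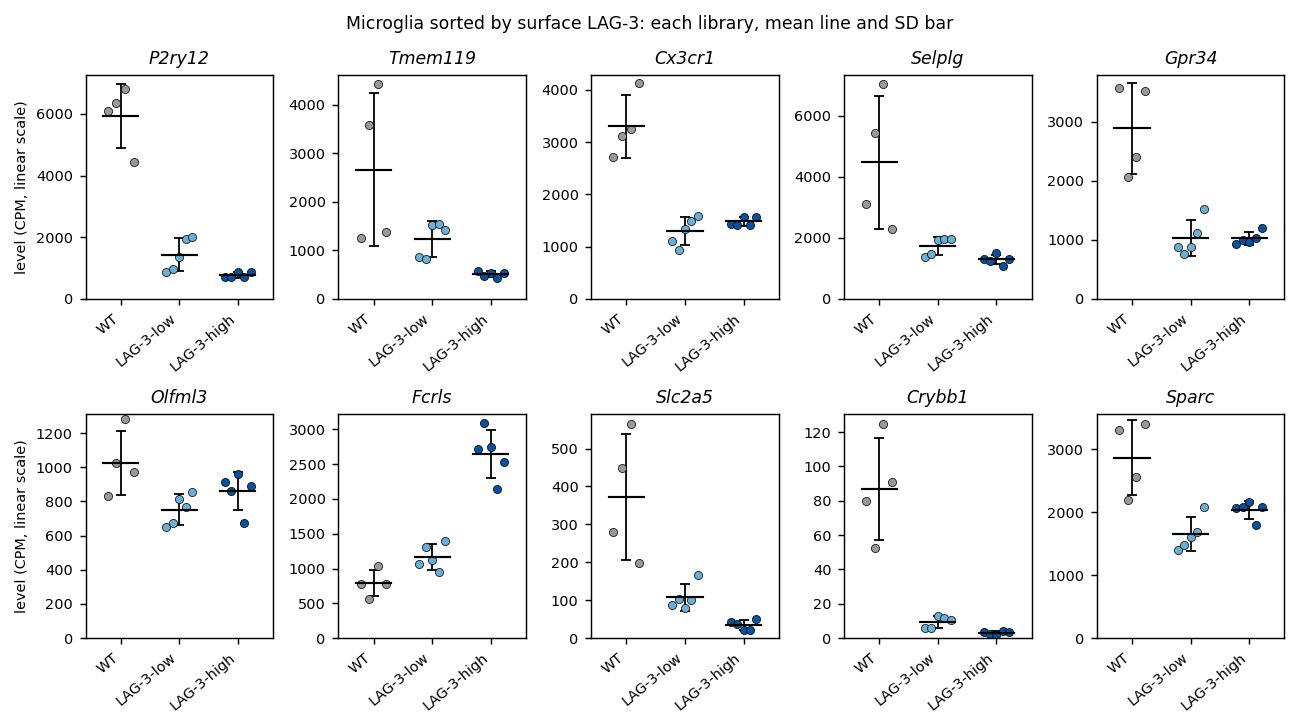
Level (CPM, linear axes from 0) of each gene in the 3 sorted groups (4 WT libraries, then 5 of each LAG-3 fraction), 1 point per library, with the group mean and SD. P2ry12, Slc2a5 and Crybb1 are highest in WT, lower in LAG-3-low and lowest in LAG-3-high cells, Cx3cr1 and Gpr34 overlap between the fractions, and Fcrls steps up to 2138 to 3097 CPM.

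Within the SOD1G93A cells, the high and low fractions differed in 4 of the 10 genes. Of these, 3 were called lower in LAG-3-high microglia, with 2.67% of all genes called lower, and Fcrls was called higher, with 0.818% of all genes called higher. Over all genes, 441 lower and 135 higher, these counts fell to 281 and 89 without LAG-3-low replicate 3, to 286 lower without LAG-3-low replicate 2 and to 89 higher without LAG-3-low replicate 4 or LAG-3-high replicate 1. With only these fractions in the fit they rose to 1123 lower and 327 higher of 14651 genes. Slc2a5 had a log2 fold change of -1.63 (standard error 0.34, adjusted p = 0.0157), Crybb1 of -1.63 (standard error 0.37, adjusted p = 0.027) and Tmem119 of -1.29 (standard error 0.33, adjusted p = 0.0477). The call for Tmem119 was lost under 7 alternatives, 6 of them with 1 library of LAG-3-low (replicate 3 or 4) or LAG-3-high (replicate 2, 3, 4 or 5) left out and the other the replicate block at -1.25 (adjusted p = 0.111). The rise of Fcrls was 1.18 (standard error 0.17, adjusted p = 0.00205), and without TMM factors, which lowers every value of this comparison by about 0.38, it fell under the fold minimum at 0.80 (adjusted p = 0.0185). P2ry12 was lower in every LAG-3-high library, at -0.88 (standard error 0.23, adjusted p = 0.0507), under the fold minimum, and called without LAG-3-low replicate 1 and, at -1.27, without TMM factors. Gpr34 (-0.01), Cx3cr1 (0.19), Olfml3 (0.19), Sparc (0.31) and Selplg (-0.43) had adjusted p of 0.473 to 0.998. The 8 pan-microglial markers had a median of 0.51, with 0 called in either direction. Their sum was 7059 to 8440 CPM in LAG-3-low and 10042 to 11585 CPM in LAG-3-high libraries. Neutrophil marker RNA was present in the LAG-3-low and near absent in the LAG-3-high libraries. The part of these 2 shifts in the differences of the 10 genes was not tested.

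Promoter sequence of 3 genes with different courses is shown so that their upstream bases can be compared: Olfml3, which was not called in the sorts, Slc2a5, which fell 10.7-fold in LAG-3-high microglia, and P2ry12. RefSeq promoter windows, which begin 250 bases before a gene's start, were given for 7 of the 10 genes (not Tmem119, Selplg or Gpr34), and each matched GRCm39 at 1 place. Stretches annotated as untranslated on either strand are left out of the first pair, which leaves 245 bases for Olfml3 (chr3:103645323-103645567, minus strand) and 162 bases for Slc2a5 (chr4:150203551-150203712, plus strand). The P2ry12 window is annotated as untranslated throughout, by Med12l on the other strand, and only a chosen site of 27 bases in it is shown (chr3:59170442-59170468, minus strand). The Olfml3 stretch lies directly upstream of the annotated gene, and that of Slc2a5 lies within the annotated gene, before the RefSeq start. Capitals mark GGAA or its reverse TTCC, the core that ETS factors such as PU.1 read.
Olfml3: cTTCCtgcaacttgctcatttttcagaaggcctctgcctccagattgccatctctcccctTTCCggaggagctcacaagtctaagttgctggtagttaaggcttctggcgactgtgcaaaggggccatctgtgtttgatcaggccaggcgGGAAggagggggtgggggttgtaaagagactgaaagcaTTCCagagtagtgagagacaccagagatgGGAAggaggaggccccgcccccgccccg
Slc2a5: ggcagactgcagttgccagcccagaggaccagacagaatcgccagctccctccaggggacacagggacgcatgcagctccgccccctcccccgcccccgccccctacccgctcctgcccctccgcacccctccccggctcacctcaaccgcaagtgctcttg
P2ry12 site: gctaacaagaaGGAAgTTCCccagtga
The Olfml3 stretch holds the core 5 times and the Slc2a5 stretch 0 times, with GC contents of 56.7% and 71.0%. The core is present on either strand in 93.4% of the 32851 promoter windows. The longer AGGAAGT, chosen after the windows were read, is in the P2ry12 site, which lies 36 to 62 bases before the start, in the Fcrls window on the other strand and in 7.69% of all windows. The PU.1 letters GAGGAAGT (2.44% of all windows), the AP-1 letters TGANTCA (6.75%) and the MEF2 motif (1.69%) were in none of the 7 windows. The MAF letters TGCTGA, found in 16.1% of all windows, were in those of Fcrls, Crybb1 and Sparc, and the SMAD letters CAGAC, found in 42.2%, were in all but that of Olfml3.

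Other homeostatic microglia genes had smaller median differences in the same sorts. Of 22 listed (transporters, receptors, enzymes and transcription factors of microglia), 9 were called lower in LAG-3-low and 8 in LAG-3-high microglia relative to WT and 0 were called higher, with medians of -0.62 and -0.69 in log2 fold change. Those with the smallest adjusted p were Itgb5, an integrin subunit, at -2.40 (adjusted p = 1.40e-04), Rnase4 at -1.60 (adjusted p = 1.40e-04) and Bin1 at -1.25 (adjusted p = 2.15e-04) in LAG-3-low microglia. In LAG-3-high microglia they were Siglech, a microglial lectin, at -2.26 (adjusted p = 8.66e-05), Sall1, a transcription factor of microglial identity, at -2.21 (adjusted p = 1.09e-04) and Ltc4s, leukotriene C4 synthase, at -3.39 (adjusted p = 1.39e-04). Between the fractions 1 of 22 was called, Gpr165, lower in LAG-3-high microglia, while Tgfbr1 at 0.69 (adjusted p = 0.00489) passed the adjusted p and not the fold minimum.

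Of 14 ligands, enzymes and relatives of the genes, 11 could be tested. In LAG-3-low microglia 2 were called higher than in WT, among them Slc2a3, the GLUT3 glucose transporter, at 2.95 (adjusted p = 0.0224). The 1 called lower was Entpd1 (CD39), which hydrolyses ATP and ADP upstream of P2ry12, at -1.27 (adjusted p = 0.00122). In LAG-3-high microglia 3 were called higher, among them the sheddase gene Adam17 at 1.30 (adjusted p = 0.0302) and Sparcl1, a relative of Sparc, and 1 was called lower. Between the fractions, Slc2a3 was called lower in LAG-3-high microglia at -3.42 (adjusted p = 0.0199), and Entpd1 at 0.67 (adjusted p = 0.0871) was under the fold minimum. Neutrophil marker RNA stood high in LAG-3-low and WT libraries, as given above, and its part in the values of Slc2a3 was not tested.

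In the stage experiment, which asks how the genes change from P120 to P140 with and without LAG-3, 4 of 10 genes were higher at P140 in SOD1G93A/LAG-3+/+ microglia (adjusted p under 0.1, with no minimum fold), where 11.9% of all genes were called higher. In turn 0 were lower, where 15.5% of all genes were called lower. The median log2 fold change of the 10 genes was 0.63, beside -0.22 for all tested genes. The 8 pan-microglial markers had a median of 0.81, with 4 called higher and 2 lower, and their sum was 7652 to 8910 CPM at P120 and 10255 to 12237 CPM at P140. Border macrophage and monocyte markers, of which 3 to 7 of 10 were at 0 in a library, held 10.2 to 20.3 CPM at P120 and 111 to 150 CPM at P140, and neutrophil markers 1682 to 2548 and 3.92 to 3468 CPM. The part of these shifts in the stage values was not tested. Of the 10 genes, 8 had every P140 library above every P120 library, as did 16.8% of all genes. Leaving out any 1 of the 3 P120 libraries lowered the calls over all genes from 2219 higher and 2899 lower to 1348 to 1408 higher and 1870 to 1931 lower.

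Olfml3 was at 1103, 1016 and 840.3 CPM at P120 and 1742, 2068 and 2407 CPM at P140 in SOD1G93A/LAG-3+/+ microglia. All P140 libraries were above all P120 libraries, a 2.10-fold rise with a log2 fold change of 1.07 (standard error 0.26, adjusted p = 0.017). Fcrls was at 1943, 1691 and 1281 CPM at P120 and 2978, 3585 and 3710.5 CPM at P140, without overlap, a log2 fold change of 1.06 (standard error 0.28, adjusted p = 0.0249). Gpr34, the lysophosphatidylserine receptor, went from 1358, 1677 and 1748 CPM to 2944, 3496 and 3521 CPM, also without overlap, at 1.06 (standard error 0.31, adjusted p = 0.0386). The call for Gpr34 was lost without TMM factors, without P120 SOD1G93A/LAG-3+/+ replicate 1 and without P140 SOD1G93A/LAG-3+/+ replicate 3 (adjusted p up to 0.173). Sparc went from 2584, 2516 and 2126 CPM to 3452, 3843 and 4099 CPM with a log2 fold change of 0.66 (standard error 0.22, adjusted p = 0.0589), and of 6 fits with a library left out only that without P140 SOD1G93A/LAG-3+/+ replicate 1 kept the call (adjusted p up to 0.186 in the others).

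Another 4 genes were higher in every P140 library than in any P120 library and did not pass the test. P2ry12 was at 1921, 2932 and 3196 CPM at P120 and 3341, 3519.8 and 5409 CPM at P140, with P140 library 3 well above the others, and its log2 fold change was 0.61 (standard error 0.44, adjusted p = 0.361). Selplg was at 2097, 2408 and 2572 CPM and 3528, 3612 and 4371 CPM, with 0.70 (standard error 0.33, adjusted p = 0.157). Tmem119 was at 1431, 1645 and 1868 and 2261, 1979.8 and 2449.7 CPM (0.44), and Slc2a5 at 138, 215 and 217 and 239.6, 254 and 279 CPM (0.44). Crybb1, at 12.9, 20.2 and 31.1 and 31.9, 32.02 and 23.2 CPM, overlapped between the stages (0.44).

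Cx3cr1 alone had a negative value. It was at 1649, 1864 and 1699 CPM at P120 and 1516, 613 and 1231 CPM at P140, where library 2 was the lowest of all 12 libraries of the experiment. The log2 fold change was -0.63 (standard error 0.27, adjusted p = 0.13), it was called without TMM factors and without P140 SOD1G93A/LAG-3+/+ replicate 1, and with length and GC content corrected for it was 0.20 (adjusted p = 0.675).

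Of the 22 other homeostatic genes, 10 were called lower and 3 higher at P140 in SOD1G93A/LAG-3+/+ microglia, with a median of -0.51, the smallest adjusted p being those of Slco2b1, an organic anion transporter, at -2.13 (adjusted p = 0.00497), Csf1r, the receptor for the microglial survival factors CSF1 and IL-34, at -1.84 (adjusted p = 0.00552) and Tgfbr2 at -2.25 (adjusted p = 0.00562). Among the ligands, enzymes and relatives, 3 were called higher and 3 lower, with the sheddase genes Adam10 at -2.24 (adjusted p = 0.00581) and Adam17 at -1.62 (adjusted p = 0.0106) and the glucose transporter gene Slc2a1 at 1.54 (adjusted p = 0.0108). Transcripts of the 10 genes had a median length of 2352 bases and those of the 22 genes 4627 bases. Between 18896 and 20489 genes were detected in the P140 and between 24136 and 24942 in the P120 SOD1G93A/LAG-3+/+ libraries, and the part of these differences in the stage comparison was not tested beyond the correction for length and GC content, under which 5 of the 10 genes and 3535 of all 18669 were called higher.

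In SOD1G93A/LAG-3-/- microglia 0 of 10 genes were called between the stages in either direction by edgeR, with 0.0% of all genes called higher and 0.0% lower. The unadjusted p was under 0.05 for 3 of the 10, and DESeq2 called 0. Fcrls had the widest difference, from 1022, 1657 and 1006 CPM at P120 to 3096, 2205 and 1539 CPM at P140, a log2 fold change of 0.89 (standard error 0.28, adjusted p = 0.475). Olfml3 went from 881, 749.7 and 820.3 CPM to 1957, 1190.2 and 899 CPM, without overlap, at 0.72 (standard error 0.26, adjusted p = 0.504), and Sparc from 2265, 1887 and 1729 CPM to 3987, 2691 and 2117 CPM at 0.58 (standard error 0.22, adjusted p = 0.51). For the other 7 genes the log2 fold change lay between -0.37 (Slc2a5) and 0.27 (Gpr34).

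The spread within the SOD1G93A/LAG-3-/- groups was wide for P2ry12, Tmem119 and Slc2a5. At P140 it was also wide for Gpr34 (SD 54.2% of the mean) and Selplg (45.7%), beside 45.8% for P2ry12 and 26.9% for Crybb1. P2ry12 was at 4269, 1457 and 4603 CPM at P120 and 4176, 1679 and 2494 CPM at P140, Tmem119 at 2308, 806 and 2363 and 2607, 1202 and 1449.7 CPM, and Slc2a5 at 237, 66.9 and 347 and 307, 85.3 and 112 CPM. Library 2 was the low one at P120 in each of these, and library 1 the high one at P140. Crybb1 had the widest range at P120, with 18.9, 5.9999 and 45.1 CPM, and stood at 26.6, 15.4 and 20.8 CPM at P140. The receptor gene Cx3cr1 was steadier, at 1648, 1485 and 1784 CPM at P120 and 1596, 1518 and 1156 CPM at P140.

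Between the genotypes 0 of the 10 genes were called at P120, where edgeR called 0.0% of all genes higher and 0.0107% lower. All 10 adjusted p were 1, the log2 fold changes of SOD1G93A/LAG-3-/- against SOD1G93A/LAG-3+/+ microglia ran from -0.42 (Fcrls) to 0.36 (P2ry12), 0 of 10 had an unadjusted p under 0.05 and DESeq2 called 0. Standard errors ran from 0.22 for Sparc to 0.59 for Crybb1, and differences of about those sizes would not be detectable here. Larger ones could be missed too: in the same fit, Fcrls between the stages in SOD1G93A/LAG-3-/- microglia, at 0.89 (standard error 0.28), had an adjusted p of 0.475. Neutrophil markers held 1682 to 2548 CPM in the SOD1G93A/LAG-3+/+ and 2.76 to 4.55 CPM in the SOD1G93A/LAG-3-/- libraries at P120, and their part in the P120 values was not tested.

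At P140 again 0 of 10 genes were called in edgeR, where 7.22% of all genes were called higher and 3.0% lower in SOD1G93A/LAG-3-/- microglia. These shares moved with single libraries: 1347 genes higher and 561 lower became 83 and 12 without SOD1G93A/LAG-3-/- replicate 2, 137 and 14 without its replicate 3, 573 and 90 without SOD1G93A/LAG-3+/+ replicate 2 and 637 and 126 without its replicate 3. With the replicate block they were 626 and 188, and with only both P140 groups in the edgeR fit 0 of 15091 genes were called, while DESeq2 over all groups called 2370 and 1911. The unadjusted p was under 0.05 for 1 gene, Olfml3, and DESeq2 called 2 lower, Olfml3 and Selplg. All but Cx3cr1 (0.35) had negative values, from -0.35 for Tmem119 to -0.72 (standard error 0.33, adjusted p = 0.208) for Selplg, and the median was -0.57 beside 0.14 for all genes. The 8 pan-microglial markers had a median of -0.43 in the same comparison, with 2 called higher and 1 lower, and the part of that shift was not tested. Gpr34 shows the pattern: it was at 2944, 3496 and 3521 CPM in the SOD1G93A/LAG-3+/+ libraries and 3416, 1457 and 1429 CPM in the SOD1G93A/LAG-3-/- libraries. Libraries 2 and 3 of the latter lay at less than the lowest SOD1G93A/LAG-3+/+ value, and library 1 lay within that group. Selplg had the same arrangement, at 3528, 3612 and 4371 against 3561, 1816 and 1626 CPM.

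Without P140 SOD1G93A/LAG-3-/- replicate 1, calls were gained over all genes, to 2439 higher and 1701 lower of 20508, and 5 of the 10 genes were called lower: Gpr34 at -1.20 (adjusted p = 0.00431), Olfml3 at -0.98 (adjusted p = 0.00925), Selplg at -1.15 (adjusted p = 0.0248), Sparc at -0.66 (adjusted p = 0.0287) and Fcrls at -0.87 (adjusted p = 0.06). Its Lag3 level was 0.158 CPM, like the other SOD1G93A/LAG-3-/- libraries, and 20260 genes were detected in it, within the range of the P140 SOD1G93A/LAG-3+/+ libraries. Among the other homeostatic genes, 7 of 22 were called higher and 0 lower in SOD1G93A/LAG-3-/- microglia at P140, with the smallest adjusted p for Slco2b1 at 1.73 (adjusted p = 0.0214), Csf1r at 1.54 (adjusted p = 0.0282) and Tgfbr2 at 1.80 (adjusted p = 0.0311). Of the ligands, enzymes and relatives 2 were called higher, Adam17 at 1.73 (adjusted p = 0.0309) and Adam10 at 1.76 (adjusted p = 0.0337). The calls of both lists were lost with only the P140 groups in the fit.

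At P120 and between the stages in SOD1G93A/LAG-3-/- microglia 0 genes of either list were called by edgeR, where Itgb5 had the smallest adjusted p of both lists at -3.14 (adjusted p = 0.107) for the genotypes at P120.

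Whether the genotype effect itself differed between the stages was tested by the interaction term, for which 0 of 10 genes were called by edgeR (0.161% of all genes called higher and 0.0107% lower), 0 had an unadjusted p under 0.05 and DESeq2 called 0. The largest values in size were those of P2ry12 at -0.92 (standard error 0.61, adjusted p = 0.537) and Slc2a5 at -0.81 (standard error 0.78, adjusted p = 0.697). Without P140 SOD1G93A/LAG-3-/- replicate 1, Gpr34 at -1.32 (adjusted p = 0.0234) and Selplg at -1.21 (adjusted p = 0.0997) were called, and the calls over all genes went from 30 higher and 2 lower to 1187 higher and 526 lower. Of the 22 other homeostatic genes 1 was called, Itgb5 at 3.78 (adjusted p = 0.0908), followed by Csf1r at 1.55 (adjusted p = 0.185) and Slco2b1 at 1.53 (adjusted p = 0.185). The call of Itgb5 was lost with the replicate block, with sex as a covariate, without any 1 of the 6 P120 libraries and without P140 SOD1G93A/LAG-3-/- replicate 2 or 3, under each of which 0 of all genes were called higher.

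**Figure D3:**
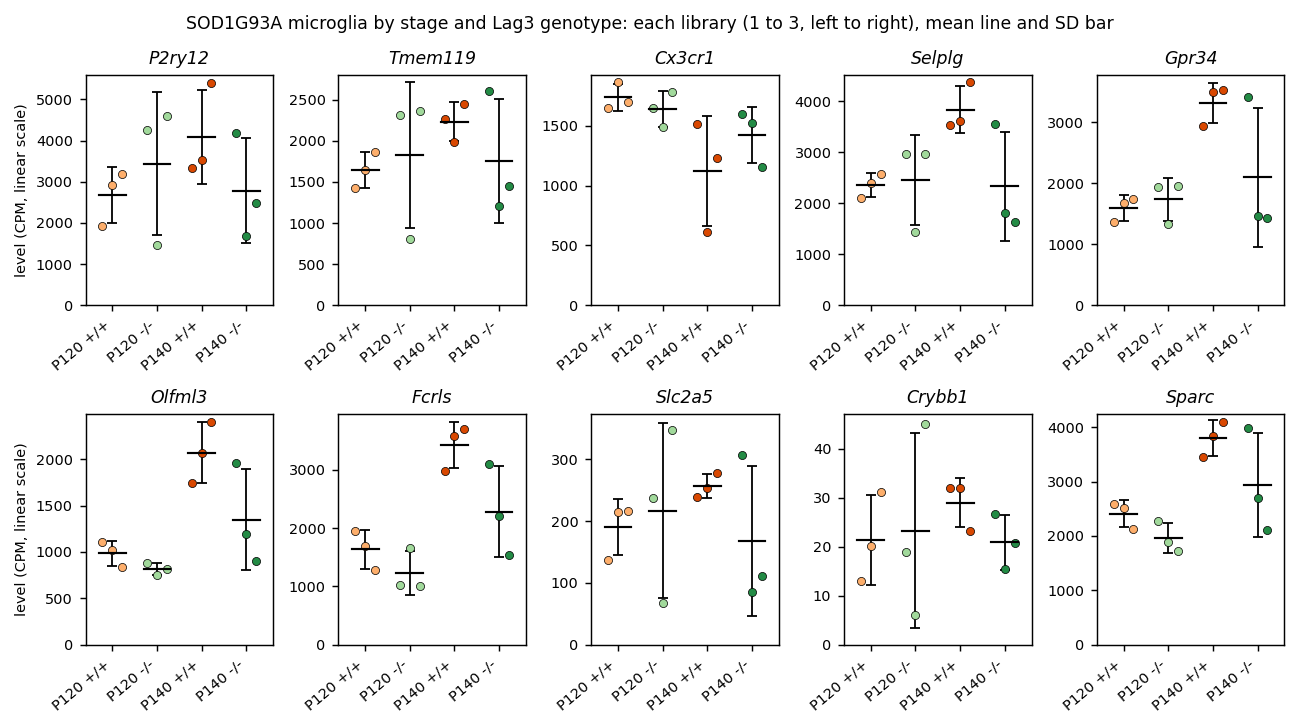
Level (CPM, linear axes from 0) of each gene in the 3 libraries of each stage and genotype of SOD1G93A microglia, in the order of their numbers, with the group mean and SD. Library 1 of the P140 -/- group lies above libraries 2 and 3 in every panel, and library 2 of the P120 -/- group is the lowest of its group for 8 genes.

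In whole lumbar cord at P140 most of these transcripts were scarce, and Sparc was the exception. Sparc stood at 2070.0, 1835 and 2050.1 CPM in SOD1G93A/LAG-3+/+ and 2225, 1978 and 1833 CPM in SOD1G93A/LAG-3-/- cord, a level of 859.8 ± 56.3 and 871 ± 85.9 CPM per kb (SD, n = 3), while the next gene, Fcrls, had 66.4 ± 11.98 and 46.4 ± 10.8. Its log2 fold change was 0.02 (standard error 0.14, adjusted p = 0.931). In bulk cord, fewer microglia and less RNA per microglial cell cannot be told apart.

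Crybb1 was the 1 gene of 10 called in cord, higher in SOD1G93A/LAG-3-/- mice, where 4.37% of all genes were called higher and 3.15% lower. It was at 0.636, 0.903 and 1.13 CPM in SOD1G93A/LAG-3+/+ cord, from 17, 21 and 29 counts, and at 3.83, 2.25 and 2.70 CPM in SOD1G93A/LAG-3-/- cord, from 67, 57 and 54 counts. Every library of the knockout exceeded every control library, a 3.29-fold difference and a log2 fold change of 1.70 (standard error 0.31, adjusted p = 0.00179), called in every alternative run. The sorted microglia of the same genotypes and stage gave -0.47 for this gene (adjusted p = 0.683).

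Other genes passed the adjusted p and not the fold minimum. That was common in cord: with no fold minimum, 4096 of all 17702 genes were called higher and 4234 lower. Of the 10 genes, 5 had an adjusted p under 0.1. Cx3cr1 was at 202, 161 and 200.3 CPM in SOD1G93A/LAG-3+/+ and 144, 110.1 and 128 CPM in SOD1G93A/LAG-3-/- cord, without overlap, a log2 fold change of -0.56 (standard error 0.13, adjusted p = 0.00739). Fcrls was at 169, 119.6 and 165 against 128, 79.4 and 109 CPM, with the groups overlapping, and a log2 fold change of -0.52 (standard error 0.19, adjusted p = 0.0528). Gpr34 was at 38.8, 32.4 and 45.4 against 35.98, 22.3 and 20.7 CPM, also overlapping, with -0.57 (standard error 0.21, adjusted p = 0.0659). Tmem119 took the other direction, at 25.9, 22.4 and 26.1 against 38.4, 29.6 and 29.97 CPM, and all knockout libraries were above the controls, with 0.40 (standard error 0.13, adjusted p = 0.0298). Its value was 0.05 (adjusted p = 0.805) with length and GC content corrected for and 0.26 (adjusted p = 0.13) without TMM factors. With a library left out, the adjusted p reached 0.163 for Fcrls, 0.194 for Gpr34 and 0.111 for Tmem119. P2ry12 (-0.04), Selplg (-0.04), Olfml3 (-0.17) and Slc2a5 (0.24) had adjusted p of 0.328 to 0.869.

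The 8 pan-microglial markers together held 503 to 693 CPM in SOD1G93A/LAG-3+/+ and 348 to 513 CPM in SOD1G93A/LAG-3-/- cord, and the 7 oligodendrocyte markers 17309 to 18890 and 24338 to 34036 CPM. The 8 astrocyte markers held 16570 to 18631 and 10657 to 15921 CPM, and the part of these shifts in the cord values was not tested. Relative to the summed pan-microglial RNA, Crybb1 was at 0.676% in SOD1G93A/LAG-3-/- cord against 0.149% in SOD1G93A/LAG-3+/+ cord, a difference of 2.24 in the mean log2 ratio, and Tmem119 at 7.68% in SOD1G93A/LAG-3-/- cord against 4.08% in SOD1G93A/LAG-3+/+ cord, a difference of 0.91. Both ratios were higher in all 3 knockout libraries, as were those of Selplg (0.47), Olfml3 (0.35), Slc2a5 (0.76) and Sparc (0.54). Each of these ratios had an exact permutation p of 0.1 (two-sided, the smallest that 3 against 3 libraries allow). Cx3cr1 (-0.04), Fcrls (-0.00488) and Gpr34 (-0.07), which had negative fold changes per library, overlapped between the genotypes on this scale. The pan-microglial sum was itself lower in the knockout (mean 429 against 613 CPM), which raises the ratio of any gene unchanged in cord. The share of all genes with higher ratios was not computed. Sparc stood at 478% of that sum in knockout and 328% in control cord, while its log2 fold change in cord was 0.02. Of the 22 other homeostatic genes 21 could be tested in cord and 0 were called by edgeR, with Tgfbr2 at -0.67 (adjusted p = 9.59e-04), Mef2c at -0.56 (adjusted p = 0.0014) and Tgfbr1 at -0.82 (adjusted p = 0.00411) passing the adjusted p alone. Of the 11 tested ligands, enzymes and relatives 0 were called either, with Khk (ketohexokinase, the enzyme after Slc2a5 in fructose use) at 0.79 (adjusted p = 0.00111), Entpd1 at -0.68 (adjusted p = 0.00226) and Adam17 at -0.60 (adjusted p = 0.00321). These adjusted p are to be read against the 4096 higher and 4234 lower of all 17702 genes called with no fold minimum.

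**Figure D4:**
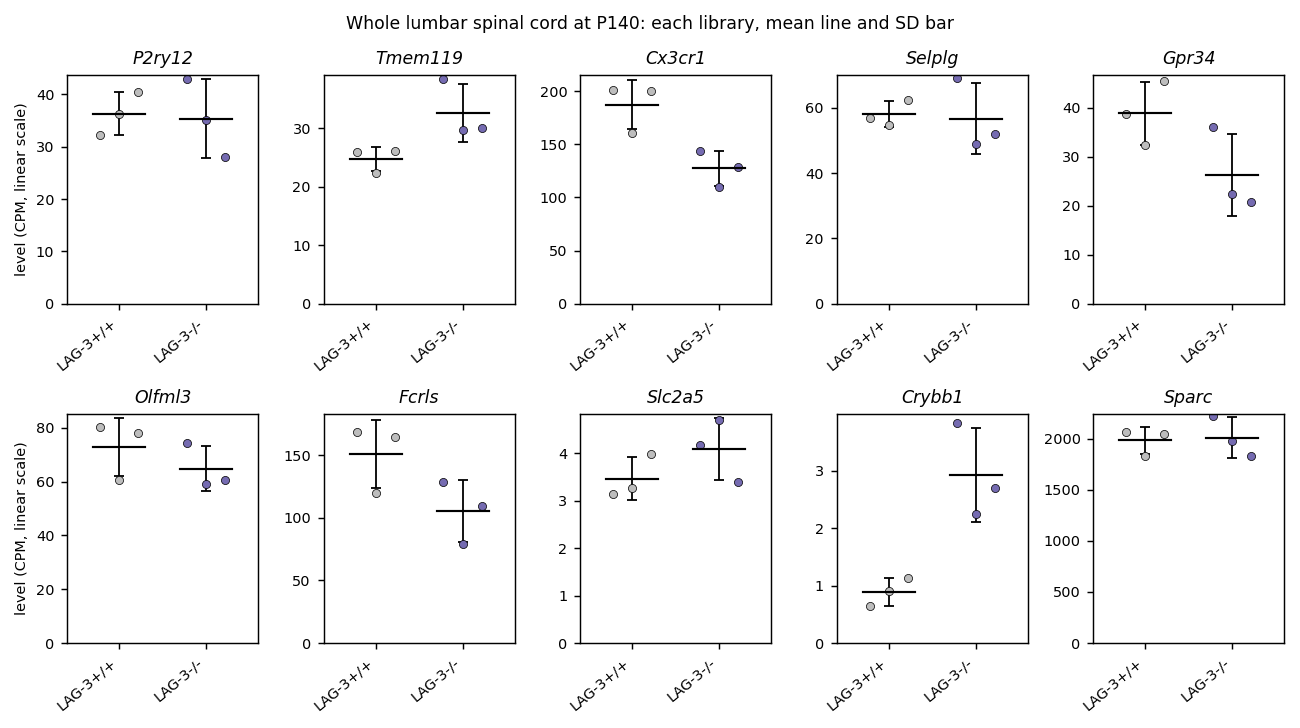
Level (CPM, linear axes from 0) of each gene in the 3 SOD1G93A/LAG-3+/+ and 3 SOD1G93A/LAG-3-/- libraries of whole lumbar cord at P140, with the group mean and SD. Crybb1 lies at 0.636 to 1.13 CPM in the controls and at 2.25 to 3.83 CPM in the knockout, Cx3cr1 lies lower in all 3 knockout libraries, and Sparc is near 2000 CPM in both.

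The fold changes of the 10 genes in the 9 comparisons are plotted together.

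**Figure D5:**
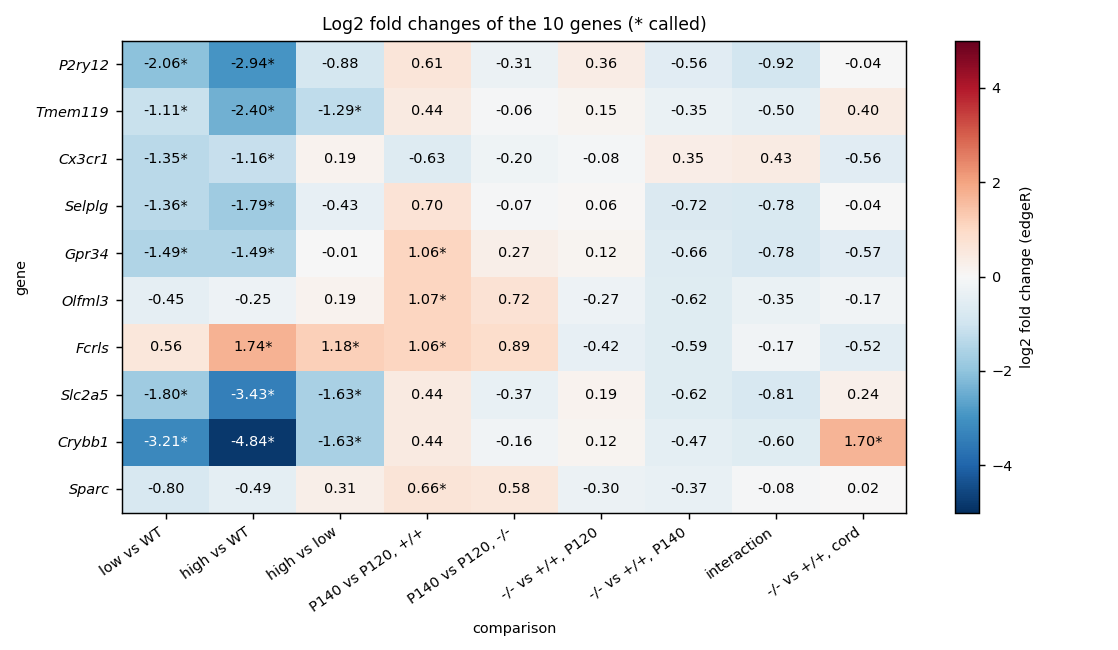
Log2 fold change of each gene (rows) in the 9 comparisons (columns), with an asterisk where it was called. Calls concentrate in the LAG-3 sorts, from -4.84 for Crybb1 to 1.74 for Fcrls in LAG-3-high against WT microglia, and none stands in the genotype columns of sorted microglia.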

How the data were processed

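The deposited tables hold estimated counts per gene, which the authors made with Trim Galore 0.6.7, Salmon 1.9.0 and tximport (R 4.2.1; GRCm39). They were rounded to whole numbers here and 0 sample columns were left unused. The methods name a directional kit for cord where the labels name SMART-seq. Each table was fitted whole with edgeR 4.0.16 in R 4.3.3 (filterByExpr with at least 10 counts, TMM, robust quasi-likelihood F-test), leaving 16508, 18669 and 17702 genes over which Benjamini-Hochberg adjustment ran. Calls needed an adjusted p under 0.1 and, in the sorts and cord, more than 1 log2 unit of change in either direction. CPM are TMM-scaled, and lengths are those of GENCODE vM39 canonical transcripts. Exact permutation tests used SciPy 1.17.1. All 10 genes are named, and of both further lists the 3 with the smallest adjusted p, except some genes that are not reported here. Members and lists were chosen with earlier results of these data known. Nothing says that replicates pair across groups, and p-values measure only the spread between these libraries. Alternatives were DESeq2 1.42.0, other scaling, filters and thresholds, a replicate block, sex, a length and GC correction and each library left out. In the sorts and stage experiment a fit of only the groups compared was another. The fits were tested on simulated data.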

Additional observations from a re-analysis of the deposited data

Results flagged for a closer look

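Of 30 groups of 4 or 5 libraries tested, 2 held a library far from the rest by Dixon's gap criterion, which chance alone meets in about 1 of 20 groups. Slc2a5 was at 167 CPM in LAG-3-low replicate 5, where the nearest library of the fraction had 102 CPM, and all 5 stayed below the lowest WT library. Sparc was at 1796 CPM in LAG-3-high replicate 4, where the nearest had 2062 CPM. That library also had the lowest level of 7 of the 10 genes in its fraction, and LAG-3-low replicate 5 had the highest level of 8 of 10 in its own.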

How the results depend on the processing

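The 10 genes were followed through up to 12 kinds of alternative. Of all values recomputed, 1616 kept their direction and, except for the cord ratios, which have no threshold, their side of the threshold. A call was lost by 25 and gained by 30, and 69 changed sign. Against WT, LAG-3-low microglia had 6 to 7 genes called lower with a library left out. With no minimum fold change Fcrls was called higher, and Olfml3 and Sparc joined the genes called lower. Of all 16508 genes, 1980 were then called higher and 2130 lower. LAG-3-high against LAG-3-low had 2 to 4 called lower with a library left out, and 0 called higher without TMM factors. Between the stages in LAG-3+/+, 2 to 4 were called higher and 0 to 1 lower with a library left out, and 2 higher and 1 lower without TMM factors. For the genotypes at P140, DESeq2 called 2 lower and leaving out a library gave 0 to 5, while the interaction gave 0 to 2 lower. In cord with no minimum fold change 2 were called higher and 3 lower, beside 4096 higher and 4234 lower of all 17702 genes. With the length and GC correction, log2 fold changes of the other sign were Fcrls -0.25 for LAG-3-low against WT, Gpr34 0.20 for LAG-3-high against LAG-3-low, Cx3cr1 0.20 for the stages in LAG-3+/+, Cx3cr1 0.0316 for the genotypes at P120, Cx3cr1 -0.22 for the genotypes at P140, Cx3cr1 -0.25 for the interaction and Olfml3 0.0720 and Sparc -0.15 for the genotypes in cord. Without TMM factors they were Cx3cr1 -0.19, Olfml3 -0.19 and Sparc -0.0748 for LAG-3-high against LAG-3-low, Tmem119 -0.0579, Slc2a5 -0.0657 and Crybb1 -0.0678 for the stages in LAG-3+/+, Gpr34 -0.0716 for the stages in LAG-3-/-, Cx3cr1 0.0266 for the genotypes at P120, Fcrls 0.0195 and Sparc 0.10 for the interaction and Sparc -0.12 for the genotypes in cord. With no filter on low counts, the value of other sign was Sparc -0.0186 for the genotypes in cord. With the replicate block they were Gpr34 0.0371 for LAG-3-high against LAG-3-low, Crybb1 0.0582 for the stages in LAG-3-/- and Selplg -0.00582, Slc2a5 -0.0158 and Crybb1 -0.0525 for the genotypes at P120. With sex as a covariate, the value of other sign was Gpr34 0.0161 for LAG-3-high against LAG-3-low. With each library left out in turn, LAG-3-high against LAG-3-low gave Gpr34 -0.0986 to 0.18. For the stages in LAG-3-/- the ranges were Tmem119 -0.46 to 0.17, Selplg -0.51 to 0.13, Gpr34 -0.27 to 0.49, Slc2a5 -1.14 to 0.15 and Crybb1 -0.61 to 0.75. For the genotypes at P120 the ranges were Tmem119 -0.0840 to 0.50, Selplg -0.11 to 0.33, Slc2a5 -0.33 to 0.62 and Crybb1 -0.78 to 0.58. For the interaction the ranges were Fcrls -0.45 to 0.11, Crybb1 -1.05 to 0.32 and Sparc -0.36 to 0.12. For the genotypes in cord the ranges were P2ry12 -0.20 to 0.0892, Selplg -0.21 to 0.0593 and Sparc -0.0620 to 0.0645. For the cord ratio the ranges were Cx3cr1 -0.0774 to 0.0100, Gpr34 -0.18 to 0.0800 and Fcrls -0.0415 to 0.0467. Whether equal replicate numbers mark paired libraries is not known. Same-number correlations were -0.12 to 0.067 over the 3 tables, which cannot decide it, since the spread between libraries could hide a pairing. In the sorts they averaged 0.014, against -0.0035 for pairs of unlike number. The replicate block is therefore only an alternative. Under it Tmem119 lost its calls against WT in LAG-3-low microglia and between the fractions. Scaling moved the genes together, without TMM factors by a median of -0.30 for LAG-3-high against WT, -0.38 between the fractions, -0.50 between the stages in LAG-3+/+ and 0.28 for the genotypes at P140. All genes called higher and lower then numbered 1488 and 3234 (2000 and 2464 in the main analysis), 35 and 633 (135 and 441), 971 and 4120 (2219 and 2899), and 2048 and 243 (1347 and 561), and in cord 485 and 830 (773 and 558). The length and GC correction gave 1314 and 4541 for LAG-3-low against WT (1793 and 1821), 1352 and 4271 for LAG-3-high against WT, 3535 and 1163 between the stages in LAG-3+/+, 374 and 767 for the genotypes at P140, 284 and 452 between the fractions and 331 and 472 in cord. DESeq2 called 2370 and 1911 for the genotypes at P140, 177 and 811 between the fractions, 358 and 91 between the stages in LAG-3-/- (0 and 0 in the main analysis), 35 and 99 for the genotypes at P120 (0 and 2) and 909 and 392 for the interaction (30 and 2). The cause of these changes was not tested. Counts of 17 to 67 for Crybb1 in cord limit its precision.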

Other observations

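Microglia of P140 SOD1G93A/LAG-3+/+ mice that were not split by LAG-3 had P2ry12 at 3341 to 5409 CPM, while the sorted SOD1G93A fractions of that age had 879 to 2009.9 CPM (LAG-3-low) and 693 to 877 CPM (LAG-3-high). For Gpr34 the ranges were 2944 to 3521, 765 to 1528 and 926 to 1203 CPM, and for Crybb1 23.2 to 32.02, 5.61 to 13.03 and 1.97 to 3.90 CPM. The unsplit cells thus lay above both fractions for these genes, chosen after their values were seen. Cx3cr1 differed in this, at 613 to 1516 CPM in the unsplit cells and 929 to 1591 and 1408 to 1574 CPM in the fractions. Lag3 itself was at 24.5 to 28.1 CPM in the unsplit cells, 34.8 to 57.8 CPM in LAG-3-low and 146 to 195 CPM in LAG-3-high cells. The tables were normalised separately and hold no common library, so no test was made between them.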
